A study of Mus musculus with 6 samples.

Results

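The transcripts described here belong to 32 genes of B cells, T cells and lymph node stroma, measured in whole inguinal subcutaneous white adipose tissue (SC-WAT) of the mouse. The genes were listed by name, and each name mapped to 1 gene on the assembled chromosomes among the 47069 genes in the count tables. *Ccl19* and *Ccl21a* each had a second identifier on a scaffold outside these chromosomes, with 0 counts in every mouse. They comprised 10 B cell genes, 14 T cell genes, 3 genes of lymphocyte homing and lymphoid organisation, and 5 genes of lymph node stroma. The list was made to judge how much lymph node RNA each mouse's sample held. The sources used here do not say whether the inguinal lymph node was left in the fat pad or removed.

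Fat pads came from 3 *Egr1*+/+ female mice, the controls, and 3 *Egr1*-/- female mice, the mutants, all 2 weeks old and of strain C57BL/6 per the labels and kept on a C57BL/6 J background per the methods, with 1 RNA library per mouse. In the mutant line the *LacZ* sequence was inserted near the start of *Egr1*, together with a frameshift before the DNA-binding domain. The inactivation was not restricted to adipocytes, so lymphocytes and stromal cells of *Egr1*-/- mice carried it as well. The 6 mice came from 4 litters, and a single *Egr1*+/+ mouse and a single *Egr1*-/- mouse, not named, were littermates, so the mice of a group may not be fully independent. *Egr1* itself had 353, 241 and 711 counts in control replicates 1, 2 and 3, and 103, 84 and 57 counts in mutant replicates 1, 2 and 3, with no overlap (log2 fold change -2.19, adjusted p = 0.0879 in edgeR's test). The libraries held 29661984 to 42357981 counts on genes. Mitochondrial genes took 50.0% to 57.6% of them in 5 mice and 66.3% in *Egr1*-/- replicate 1.

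Lymph nodes are sites where naive lymphocytes leave the blood, meet antigen and leave again through the lymph, and the inguinal node lies inside the subcutaneous fat pad. Lymphocytes enter through high endothelial venules, whose sugar-bearing addressins the lymphocyte binds. Inside the node, stromal chemokines place the cells. CXCL13 draws cells with the receptor CXCR5 into B cell follicles, and CCL19 and CCL21 draw cells with CCR7 into the T cell zone. Lymphotoxin, made by lymphocytes, maintains these stromal cells.

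Transcripts of all 32 genes were found in every mouse, the least counted value being 14 counts, and all 32 passed the filter on low counts that left 17667 genes for testing. Levels are given as CPM, counts scaled to the library size normalized by edgeR's TMM method. In bulk RNA, fewer cells of a type and less RNA per cell cannot be told apart. The fitted difference was in the same direction for all 32 genes, with higher levels in *Egr1*-/- mice, and it passed the adjusted threshold of 0.05 for 0 of 32 genes in edgeR's quasi-likelihood test. Across all tested genes, 0.017% were called higher in that test. At an unadjusted p under 0.05, 5 of 32 genes were higher, beside 5.06% of all tested genes. DESeq2, the tool that the study used, called 1 gene, *Pax5*, among the 30 to which it gave an adjusted p, beside 1.01% of all genes called higher, and 9 of 32 genes had an unadjusted p under 0.05, beside 4.6% of all tested genes higher. Limma-voom called 0 genes, with 3 of 32 under 0.05 unadjusted, beside 4.93% of all tested genes higher. Without the filter on low counts edgeR called 8 of the 32 genes, beside 0.635% of genes called higher, in a fit where all genes shared 1 trend of variation.

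The log2 fold changes ran from 0.07 for *Cd4* to 0.95 for *Chst4* with a median of 0.47, whereas the median over all tested genes was 0.001 and 50.1% of these were positive. Genes expressed by the same cells are not independent of each other, so the shared direction is not a count of 32 separate observations. For 27 of 32 genes the 95% interval of the log2 fold change spanned 0. In 0 of 32 genes was every *Egr1*-/- mouse above every *Egr1*+/+ mouse, although 8.15% of all tested genes had this pattern.

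The levels separated the 3 *Egr1*-/- mice from each other more than they separated the genotypes. In the sum over all 32 genes the mutants spanned 2.56-fold, the controls 1.14-fold, and the genotype means differed 1.41-fold. *Egr1*-/- replicate 2 held the highest level of the 6 mice for 28 of 32 genes, while it was highest for 19.7% of all tested genes. The other 4 genes, all of them stromal, were highest in *Egr1*-/- replicate 3. *Egr1*-/- replicate 1 held the lowest level for 21 of 32 genes, against 14% of all tested genes. Replicate 2 lay above all *Egr1*+/+ mice for 32 of 32 genes, and replicate 3 did so for 29. Replicate 1 lay below all *Egr1*+/+ mice for 21 genes and within their range for 11.

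**Figure D1:**
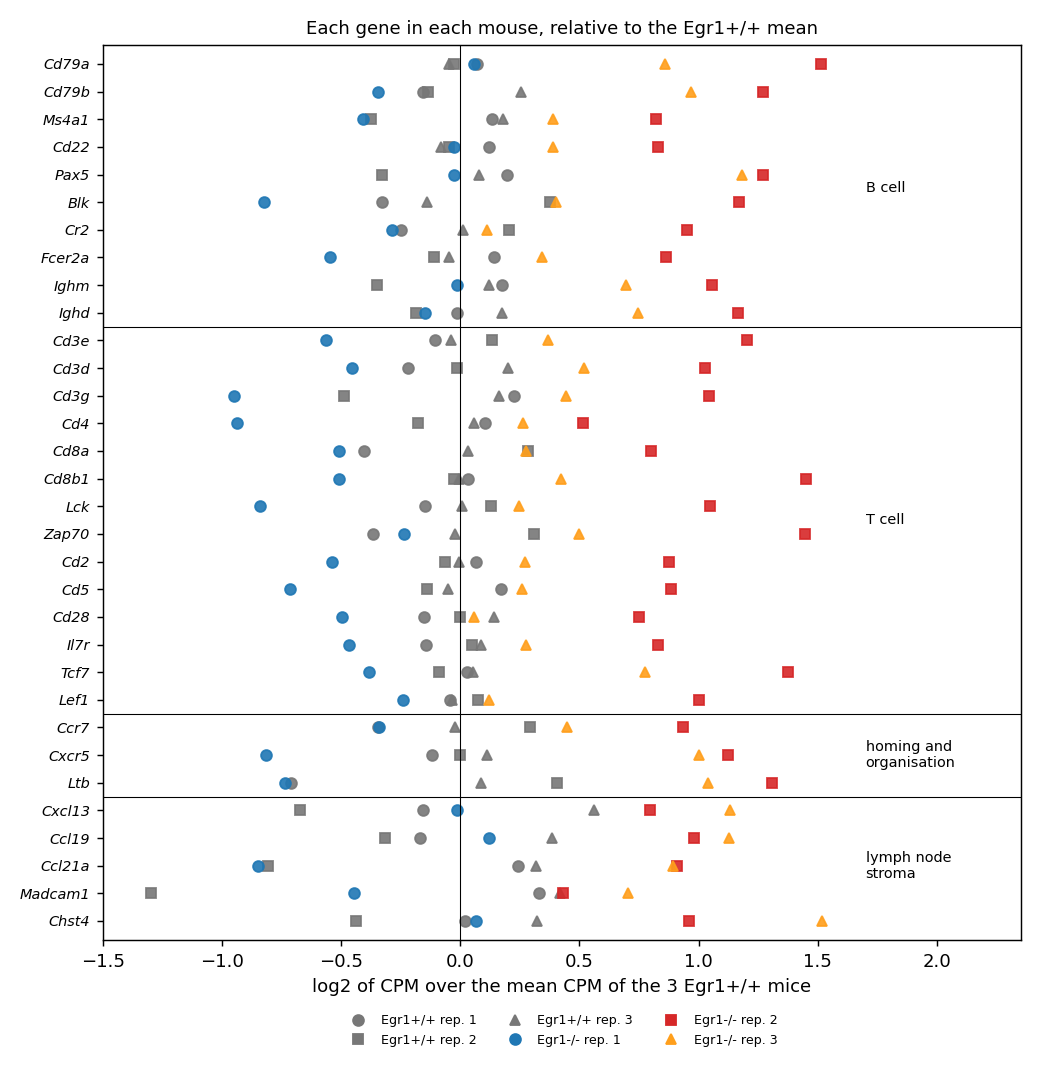
Level of each of the 32 genes in each mouse, as the log2 of its CPM over the mean CPM of the 3 *Egr1*+/+ mice, with genes in rows grouped by role and 1 symbol per mouse. *Egr1*-/- replicate 2 (red squares) is rightmost for 28 genes and *Egr1*-/- replicate 1 (blue circles) is leftmost for 21, while 1 of the *Egr1*+/+ mice, in grey, is leftmost for the other 11.

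The summed level of the 10 B cell genes was 192, 159.9 and 193 CPM in control replicates 1, 2 and 3. It was 162, 372 and 276 CPM in mutant replicates 1, 2 and 3. Replicates 2 and 3 of the mutants thus exceeded all 3 controls, and replicate 1 lay within their range. The genotype means were 182 ± 18.8 CPM (SD, n = 3) and 269.9 ± 105 CPM (SD, n = 3), a ratio of 1.49.

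The 14 T cell genes summed to 158, 158 and 168 CPM in controls, which lay within 1.06-fold of each other. In *Egr1*-/- replicates 1, 2 and 3 they summed to 109.5, 319 and 204 CPM, a 2.92-fold span. The *Egr1*-/- mice therefore fell on both sides of a narrow control range. The means were 161 ± 5.46 CPM and 211 ± 105 CPM (SD, n = 3 each), a ratio of 1.31.

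The 3 homing and organisation genes gave a ratio of 1.52 between the means of 14.5 ± 3.01 CPM and 22.0 ± 11.0 CPM (SD, n = 3 each). The 5 stromal genes summed to 9.40, 5.59 and 12.4 CPM in controls and 7.89, 16.1 and 18.9 CPM in mutant replicates 1, 2 and 3. Here the controls themselves differed 2.22-fold, and the *Egr1*-/- mice 2.40-fold. The ratio of the means was 1.56. These ratios of summed levels carry no test.

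**Figure D2:**
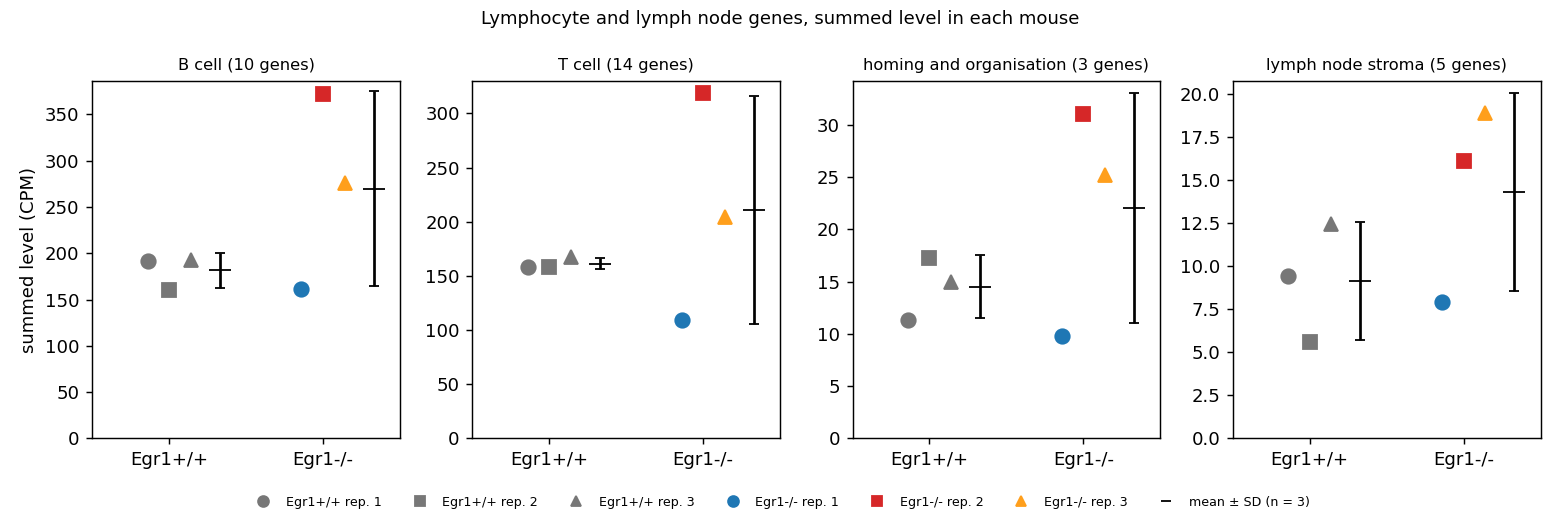
Summed level in CPM of the B cell, T cell, homing and stromal genes in each of the 6 mice, with 1 point per mouse and the mean ± SD of each genotype (n = 3), on axes that start at 0. The 3 *Egr1*+/+ mice lie close together for B cell and T cell genes, while *Egr1*-/- replicate 1 lies within their range for B cell genes and below it for T cell genes, and replicates 2 and 3 lie above.

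Which mutant was counted decided the size of the difference. Without *Egr1*-/- replicate 1, 30 of 32 genes had an unadjusted p under 0.05, beside 5.7% of all genes tested in that fit, and *Pax5* passed the adjusted threshold (adjusted p = 0.0484 in edgeR's test). Replicate 1 was the lowest mouse for 21 of these same 32 genes, so the count follows in part from the mouse left out. It is not a separate test of the genotype. The median log2 fold changes without replicate 1 were 0.86 for B cell, 0.67 for T cell, 1.06 for homing and 0.96 for stromal genes. Without *Egr1*-/- replicate 2, 0 of 32 genes had an unadjusted p under 0.05, and 13 of 32 had a negative log2 fold change. The shares of all genes tested in that fit were not computed, so these counts have no background beside them. At the adjusted threshold edgeR called 0 of all genes in that fit. The medians were then 0.28, -0.05, 0.36 and 0.66 in the same order, so the T cell median turned negative. The stromal median lost least, but most stromal genes were highest in replicate 3 and not in replicate 2. Without *Egr1*-/- replicate 3 the medians were 0.56, 0.38, 0.46 and 0.44, and the stromal median lost most. Which group lost least therefore followed from the mouse left out. In the fit of 6 mice the medians were 0.55, 0.37, 0.66 and 0.70.

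**Figure D3:**
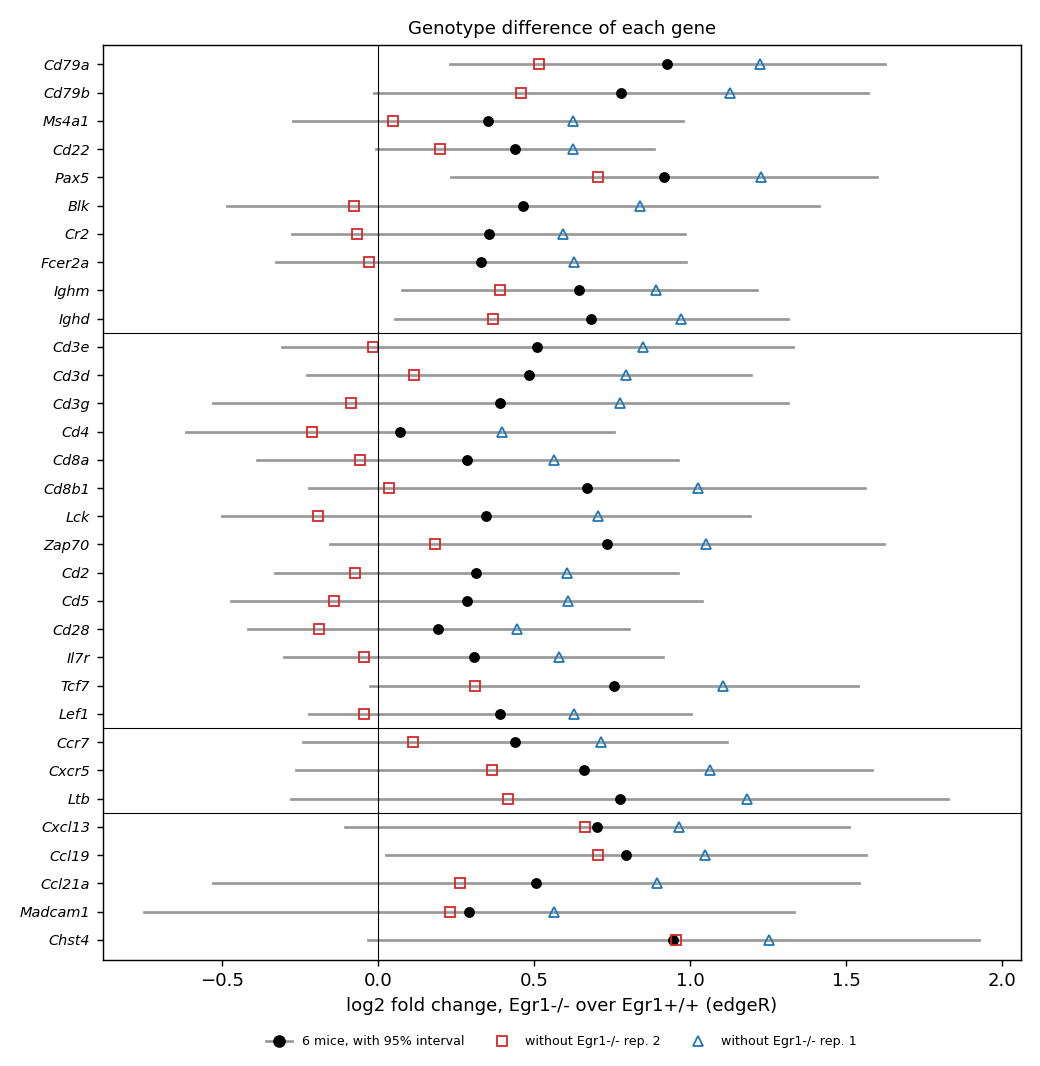
Fitted log2 fold change of each gene, *Egr1*-/- over *Egr1*+/+, from edgeR with all 6 mice (black, with the 95% interval) and with *Egr1*-/- replicate 2 (red squares) or replicate 1 (blue triangles) left out. All 32 black points lie above 0, 27 intervals span 0, and 13 red squares lie below 0.

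Among the B cell genes, those of the antigen receptor and of B cell identity had the largest differences. *Pax5* (ENSMUSG00000014030.15; GRCm38 chromosome 4, 44524757 to 44710487, minus strand) encodes the transcription factor that commits cells to the B lineage. Its level was 14.6, 10.1 and 13.4 CPM in controls and 12.5, 30.7 and 28.9 CPM in mutant replicates 1, 2 and 3. Replicate 1 lay among the controls, and the others were at more than 2.2 times the control mean. The log2 fold change was 0.91 (standard error 0.302, 95% interval 0.23 to 1.60), with a p of 0.0142 and an adjusted p of 0.324 in edgeR's test. DESeq2 gave it an adjusted p of 0.0437.

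*Cd79a* (ENSMUSG00000003379.7; chromosome 7, 24897381 to 24902197, plus strand) and *Cd79b* encode the signalling chains that carry every B cell receptor. *Cd79a* stood at 5.94, 5.56 and 5.48 CPM in controls and at 5.88, 16.1 and 10.3 CPM in mutants. The controls and *Egr1*-/- replicate 1 were nearly equal, and replicates 2 and 3 stood at 2.85 and 1.81 times the control mean. The fitted log2 fold change of *Cd79a* was 0.93 (standard error 0.308; adjusted p = 0.325 in edgeR's test), and that of *Cd79b* was 0.78 (standard error 0.350; adjusted p = 0.478).

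*Ighm* and *Ighd* encode the constant regions of IgM and IgD, the receptor classes of naive B cells. *Ighm* (ENSMUSG00000076617.9; chromosome 12, 113418558 to 113422730, minus strand) had 2336, 1421 and 2828 counts in controls and 1990, 3886 and 3023 counts in mutants. In CPM this was 68.0, 47.3 and 65.6 against 59.7, 125 and 97.7, with a log2 fold change of 0.64 (standard error 0.252; adjusted p = 0.405 in edgeR's test). Per kilobase of exon it was the most abundant of the 32 transcripts, with a mean of 31.97 CPM per kb in *Egr1*+/+ mice and 50.0 CPM per kb in *Egr1*-/- mice. *Ighd* had a log2 fold change of 0.68 (standard error 0.279, adjusted p = 0.429 in edgeR's test), and its counts were 0.237 to 0.303 of those of *Ighm*. The ratio of *Ighd* to *Ighm* counts was 0.237, 0.303 and 0.280 in controls and 0.246, 0.291 and 0.279 in mutants, with the groups overlapping.

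The remaining B cell genes encode surface receptors and a kinase of mature B cells. *Ms4a1*, which encodes CD20, had a mean of 29.1 ± 5.78 CPM in *Egr1*+/+ and 37.2 ± 14.8 CPM in *Egr1*-/- mice (SD, n = 3 each), with a log2 fold change of 0.35. *Cd22*, an inhibitory coreceptor, had a log2 fold change of 0.44 and the smallest spread between mice of all 32 genes. *Blk*, a Src-family kinase, had one of 0.46, and *Cr2*, complement receptor 2, and *Fcer2a*, the low-affinity IgE receptor CD23, had 0.35 and 0.33. *Cr2* is also made by follicular dendritic cells of the node. *Blk*, *Cr2* and *Fcer2a* turned negative without *Egr1*-/- replicate 2, at -0.079, -0.069 and -0.030.

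Among the T cell genes, the CD3 chains transmit the signal of the T cell receptor. *Cd3e* (ENSMUSG00000032093.6; chromosome 9, 44998740 to 45009627, minus strand) stood at 5.56, 6.56 and 5.82 CPM in controls and at 4.05, 13.8 and 7.73 CPM in mutants. Replicate 1 of the mutants was below all controls and replicates 2 and 3 were above them. The log2 fold changes of *Cd3e*, *Cd3d* and *Cd3g* were 0.51, 0.48 and 0.39, with adjusted p of 0.682, 0.648 and 0.796. The 3 genes lie next to each other on chromosome 9. *Lck* and *Zap70*, the kinases that act first after the receptor, had log2 fold changes of 0.35 and 0.73.

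Coreceptors of the main T cell classes had fold changes with wide and overlapping intervals, and no test compared them with each other. *Cd4*, which marks helper T cells and is also found on some myeloid cells, was at 14.3, 11.8 and 13.9 CPM in controls and 6.96, 19.1 and 16.0 CPM in mutants. Its log2 fold change of 0.07 (95% interval -0.62 to 0.76) was the smallest of the 32. It became negative with limma-voom (-0.063) and with total-count normalization (-0.021). *Cd8b1*, a chain of the cytotoxic T cell coreceptor, was at 6.40, 6.16 and 6.24 CPM in controls and 4.41, 17.1 and 8.41 CPM in mutants. Its controls lay within 1.04-fold of each other, its mutants spanned 3.88-fold, and its log2 fold change was 0.67 (95% interval -0.22 to 1.56). The other chain gene, *Cd8a*, had 0.29 (95% interval -0.39 to 0.96). The ratio of *Cd4* to *Cd8a* counts was 1.43, 0.733 and 1.03 in controls and 0.751, 0.829 and 1 in mutants.

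The transcription factors *Tcf7* and *Lef1* act in T cell development and in naive T cells. *Tcf7* (ENSMUSG00000000782.15; chromosome 11, 52252371 to 52283014, minus strand) had the largest log2 fold change of the T cell genes, 0.76 (95% interval -0.03 to 1.54; adjusted p = 0.482 in edgeR's test). It was at 13.9, 12.8 and 14.1 CPM in controls and 10.4, 35.3 and 23.2 CPM in mutants. *Lef1*, which mesenchymal cells also express, had 0.39. *Il7r*, the receptor for the survival cytokine IL-7, had 0.31, and the adhesion and costimulatory receptors *Cd2*, *Cd5* and *Cd28* had 0.31, 0.28 and 0.19. In the fit of 6 mice, 0 of 14 T cell genes had an unadjusted p under 0.05, and *Egr1*-/- replicate 2 was highest for all 14 and replicate 1 lowest for 13. The exception was *Zap70*, lowest in *Egr1*+/+ replicate 1.

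The homing genes encode receptors and a signal made by the lymphocytes themselves. *Ccr7*, which guides T cells and dendritic cells, was at 5.01, 7.79 and 6.26 CPM in controls and 5.01, 12.1 and 8.66 CPM in mutants, with a log2 fold change of 0.44. *Cxcr5*, which guides B cells, was at 3.84, 4.16 and 4.50 CPM in controls and 2.37, 9.07 and 8.34 CPM in mutants, with a log2 fold change of 0.66. The *Egr1*-/- mice again lay on both sides of the controls. *Ltb*, the membrane-bound lymphotoxin chain, had a log2 fold change of 0.77 and the widest spread of the 32 genes, 4.11-fold between the highest and the lowest mouse. The adjusted p of the 3 genes ran from 0.611 to 0.667.

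The stromal genes had low counts, and all but *Ccl21a* were highest in *Egr1*-/- replicate 3 and lowest in *Egr1*+/+ replicate 2. *Cxcl13* (ENSMUSG00000023078.6; chromosome 5, 95956951 to 95961068, plus strand), the chemokine of the follicle, had 113, 69 and 233 counts in controls and 121, 197 and 248 counts in mutants. In CPM it was 3.29, 2.30 and 5.41 against 3.63, 6.36 and 8.02, with a log2 fold change of 0.70 (95% interval -0.11 to 1.51). *Chst4*, a sulfotransferase of high endothelial venules that acts on addressins, had 22, 14 and 34 counts in controls and 22, 38 and 56 counts in mutants. Its fold change was the largest of the 32 and also among the least precise, at 0.95 (95% interval -0.03 to 1.92; adjusted p = 0.481 in edgeR's test). The exact Poisson interval of its 14 counts in *Egr1*+/+ replicate 2 alone ran from 7.65 to 23.5, and such intervals cover counting error only.

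*Madcam1*, an addressin of venules and of lymphoid stroma, had 60, 17 and 80 counts in controls and 34, 58 and 70 counts in mutants. The low count of *Egr1*+/+ replicate 2 had a Poisson interval of 9.9 to 27.2, below that of the other controls. The log2 fold change of *Madcam1* was 0.29 (95% interval -0.75 to 1.33), and it was -0.070 without that mouse. *Egr1*+/+ replicate 2 was also the lowest of the 6 mice for *Cxcl13*, *Ccl19* and *Chst4* and for the B cell genes *Pax5*, *Ighm* and *Ighd*, but not for any T cell gene.

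*Ccl19* and *Ccl21a*, the chemokines of the T cell zone, have near-identical copies in the genome. *Ccl19* (ENSMUSG00000071005.7; chromosome 4, 42754525 to 42756577, minus strand) was at 1.11, 0.999 and 1.62 CPM in controls and 1.35, 2.45 and 2.72 CPM in mutants. Its log2 fold change was 0.79 (95% interval 0.02 to 1.56; adjusted p = 0.453 in edgeR's test). *Ccl21a* was at 2.62, 1.27 and 2.76 CPM in controls and 1.23, 4.16 and 4.11 CPM in mutants, with a log2 fold change of 0.50. Of the 50-base windows of their annotated transcripts, 48.0% for *Ccl19* and 28.4% for *Ccl21a* were found in no other gene, against at least 86.3% for the other 30 genes. The tables held 11 copies and pseudogenes of both, 9 of them with 0 counts in every mouse and none with more than 7 counts in a mouse. Reads that fit several copies may have been left uncounted, so the levels of *Ccl19* and *Ccl21a* are uncertain.

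Among the *Egr1*-/- mice the balance of B cell and T cell counts varied less than their summed levels, which spanned 2.30-fold and 2.92-fold. In controls it varied more than the T cell level, which spanned 1.06-fold. Summed B cell counts over summed T cell counts gave 1.21, 1.01 and 1.15 in controls and 1.48, 1.17 and 1.35 in mutant replicates 1, 2 and 3, a value that does not depend on library size. The *Egr1*-/- mouse with the fewest lymphocyte transcripts, replicate 1, had the highest ratio, and replicate 3 also lay above all controls. The *Egr1*-/- mouse with the most, replicate 2, lay within the control range. The means were 1.13 ± 0.104 and 1.33 ± 0.156 (SD, n = 3 each). Without *Ighm* and *Ighd* the means were 0.651 ± 0.0307 and 0.732 ± 0.0692. Stromal counts per 1000 B and T cell counts were 26.8, 17.6 and 34.5 in controls and 29.1, 23.3 and 39.4 in mutants, so the groups overlapped.

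The spread between mice was wide for these genes. The biological coefficient of variation (BCV), the relative standard deviation between mice of a genotype that edgeR estimates for each gene, had a median of 0.290 over the 32 genes and 0.196 over all tested genes. It was above the overall median for 31 of 32 genes, *Cd22* being the exception, and for 16 of 32 it lay above the 75th percentile.

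Immunoglobulin and T cell receptor segments, which the list did not include apart from *Ighm* and *Ighd*, give another count of lymphocyte transcripts. The 218 annotated immunoglobulin V segments together had 638, 508 and 827 counts in controls and 493, 1203 and 865 counts in mutants. Relative to the control mean in CPM, *Egr1*-/- replicates 1, 2 and 3 stood at 0.812, 2.13 and 1.53. Between 110 and 139 of the segments had a count in each mouse, and the most counted segment held 10.8% to 15.5% of them. Constant genes of the T cell receptor had 706, 608 and 1004 counts in controls and 450, 1332 and 854 in mutants, which in CPM put the mutants at 0.632, 2.01 and 1.29 of the control mean. The V segments of the T cell receptor gave 0.767, 1.73 and 1.28. Its J segments had another order, at 0.740, 1.51 and 0.661, with replicate 3 lowest. Among the tested segments and constant genes outside the list, 0 passed the adjusted threshold in edgeR's test. Only 17 of the 218 immunoglobulin V segments were tested, and 2 of these 17 had an unadjusted p under 0.05. Across all tested genes, 5.06% were higher and 5.6% lower at that p.

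Transcripts of the switched antibody classes, described after their values were seen, were few beside those of IgM. *Ighg1*, *Ighg2b*, *Ighg2c*, *Igha* and *Ighe* had between 0 and 6 counts in any mouse, while *Ighm* had between 1421 and 3886. *Ighg3* had 3, 1 and 29 counts in controls and 10, 33 and 42 in mutants, with a log2 fold change of 1.68 (standard error 0.880; adjusted p = 0.557 in edgeR's test). *Rag1* and *Rag2*, the recombinase genes of immature lymphocytes, had 7 to 23 counts per mouse.

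Other lymphocyte genes, listed for comparison, followed the same mice. Of 18 further B cell genes, 17 had a positive log2 fold change, with a median of 0.47, and 17 were highest in *Egr1*-/- replicate 2. Their most abundant members were *Cd55*, a complement regulator found on many cells, *Bank1*, a B cell scaffold protein, and *Syk*, the kinase downstream of the B cell receptor, with log2 fold changes of -0.27, 0.34 and 0.30. Of 20 further T cell genes, 16 were positive with a median of 0.18, among them the chromatin organiser *Satb1* at 0.09. Of 8 pan-leukocyte genes, 8 were positive with a median of 0.38, and 8 were highest in *Egr1*-/- replicate 2. The most abundant, *Ptprc*, which encodes CD45, had a log2 fold change of 0.08 (adjusted p = 0.932 in edgeR's test). *Ikzf1* and *Coro1a*, the next most abundant, had 0.37 and 0.52. *Egr1*-/- replicates 1, 2 and 3 stood at 0.746, 1.58 and 1.04 of the control mean in the summed level of these 8. *Ptprc* alone made up 332 of the 487 CPM of that control mean. In edgeR's test 0 genes of these lists passed the adjusted threshold. At an unadjusted p under 0.05, 3 of the 18 B cell genes were higher, beside 5.06% of all tested genes. Among the 20 T cell and the 8 pan-leukocyte genes, 0 had such a p.

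Of 14 further genes of lymphoid organisation, 12 were positive with a median of 0.24. In edgeR's test 0 passed the adjusted threshold, and 2 of 14 were higher at an unadjusted p under 0.05, beside 5.06% of all tested genes. In 2 of 14 every *Egr1*-/- mouse was above every *Egr1*+/+ mouse, beside 8.15% of all tested genes. Of the 3 most abundant, *Ltbr* and *Nfkb2* had -0.07 and 0.22. The most abundant was *Glycam1*, which encodes an addressin of high endothelial venules and is also made by mammary epithelium. It was at 74.3, 45.1 and 77.3 CPM in controls and 56.0, 97.8 and 152.7 CPM in mutants, with a log2 fold change of 0.64 (adjusted p = 0.553 in edgeR's test). As for *Chst4* and *Cxcl13*, its lowest mouse was *Egr1*+/+ replicate 2 and its highest was *Egr1*-/- replicate 3. The summed levels of 6 mammary epithelial genes were 1.22, 10.7 and 8.54 CPM in controls and 8.71, 6.55 and 5.72 CPM in mutants. Counts of these genes were low, for *Krt14* 1, 56 and 118 in controls and 65, 37 and 18 in mutants. Whether mammary epithelium contributed to the level of *Glycam1* was not tested.

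Macrophages and other cells of the fat pad had markers with another order of mice. The 8 macrophage genes summed to 249, 378 and 309 CPM in controls and 257, 187 and 183 CPM in mutant replicates 1, 2 and 3, so that the mutants with the most lymphocyte transcripts had the least macrophage transcripts. All 8 had a negative log2 fold change with a median of -0.50, and 0 passed edgeR's adjusted threshold, 4 having an unadjusted p under 0.05, beside 5.6% of all tested genes lower. *Mrc1*, the mannose receptor, had -0.70 (adjusted p = 0.203 in edgeR's test), and DESeq2 called 2 of the 8, beside 1.88% of all genes called lower. The 6 lymphatic endothelial genes had a median of -0.34, with *Lyve1*, *Reln* and *Pdpn* at -0.35, -0.34 and -0.53. Of these 6, edgeR called 0, and 3 were lower at an unadjusted p under 0.05, *Reln* and *Pdpn* among them but not *Lyve1*. The summed level of the 6 was lowest in *Egr1*-/- replicates 2 and 3. The 6 adipocyte genes had a median of -0.01, and their summed level was lowest in *Egr1*-/- replicate 2, at 0.788 of the control mean. The 5 erythrocyte genes also had their lowest sum in that mouse, at 0.414 of the control mean, and edgeR called 0, with 3 lower at an unadjusted p under 0.05, while DESeq2 called 1, *Hba-a1* (DESeq2 adjusted p = 0.0129).

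Skeletal muscle genes varied most. The 6 genes summed to 852, 3091 and 181 CPM in controls and 69.4, 248 and 2151 CPM in mutants, so the samples held very different amounts of muscle RNA, in an order different from that of the lymphocyte genes. The 8 dendritic cell genes had a median of 0.16, the 6 tested of 8 natural killer and cytotoxic genes 0.14, and the 7 tested of 9 plasma cell and germinal centre genes -0.13, with 0 called. In the summed level of each of these lists *Egr1*-/- replicate 2 was the highest mouse. Natural killer and cytotoxic genes summed to 6.69, 7.09 and 8.10 CPM in controls and 6.00, 10.1 and 8.66 CPM in mutants. Their mutants thus had the same order as for B cell and T cell genes. The dendritic cell sums were 44.4, 39.1 and 37.3 CPM in controls and 41.4, 45.3 and 41.7 CPM in mutants. Whether the amount of any of these cells, or of mitochondrial RNA, contributed to the values of the lymphocyte genes was not tested.

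**Figure D4:**
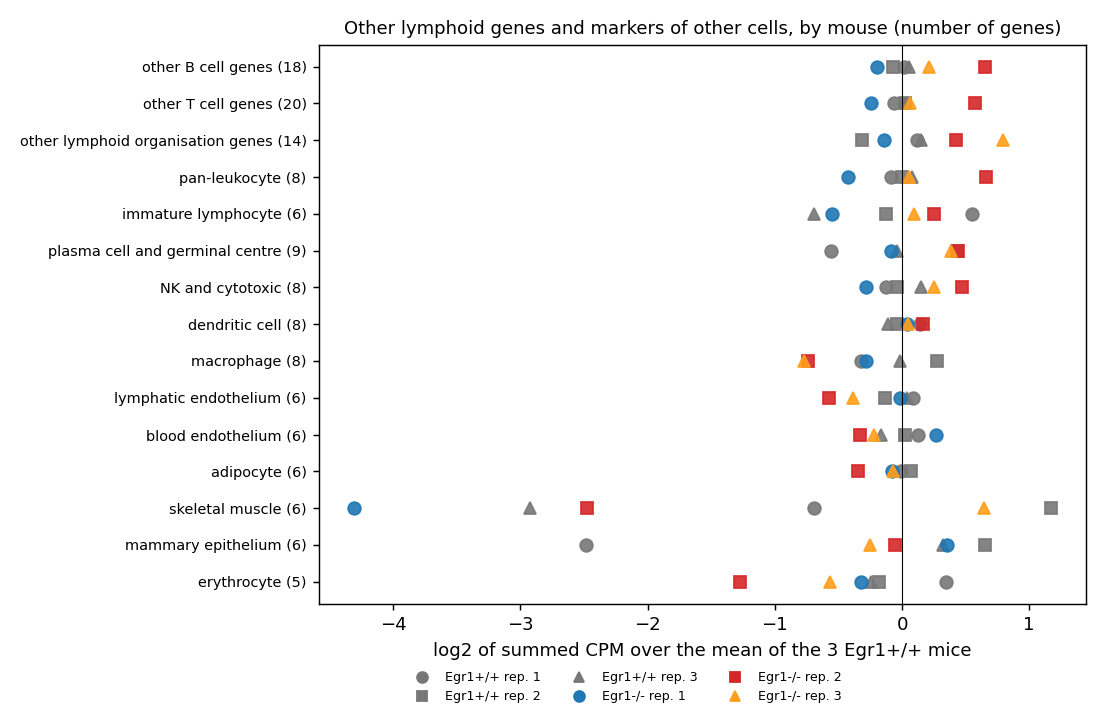
Summed level of 15 further gene lists in each mouse, as the log2 of the summed CPM over the mean of the 3 *Egr1*+/+ mice, with the number of genes in brackets and 1 symbol per mouse. *Egr1*-/- replicate 2 (red squares) is rightmost for further B cell, T cell and pan-leukocyte genes. It is also rightmost for natural killer, dendritic cell and plasma cell genes. It lies left of 0 for macrophage, lymphatic endothelial and erythrocyte genes, among others. Skeletal muscle genes span the widest range.

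Promoters were searched for 2 sets of letters, on both strands of the 300 bases around each annotated start in RefSeq GRCm38.p6, in which 21 of the 32 genes had an entry. The octamer ATGCAAAT, bound by OCT factors in B cell genes, was in 0 of 21, beside 1.97% of 27025 genes. The EGR letters GCGTGGGCG or GCGGGGGCG were in 1 of 21, beside 3.93% of all genes, a share near that of the genome as a whole. The match lay in the window of *Tcf7*, on the gene's own strand, beginning at position -146 from that start. It is shown because it was the only match, with the EGR letters in capitals, at chr11:52283142-52283170, minus strand.
Tcf7: ctggactcggGCGGGGGCGgcgcgggcgc
A match of letters is a description and not a binding site, and no binding was measured here.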

How the data were processed

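Total RNA of 6 SC-WAT samples was depleted of ribosomal RNA, made into strand-specific libraries and sequenced. Per the labels and methods, the authors mapped reads with TopHat2 and Bowtie2 to mm10 (GRCm38.p4), assigned them to GENCODE genes with featureCounts, and deposited 1 file of raw counts per mouse. The strand and multimapping settings of featureCounts are not given in the sources used here, so reads of *Cxcr5* and *Bcl9l*, which overlap, and of other overlapping or antisense genes may be mixed. The counts held 0 rows that name no gene.

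Genes were named with GENCODE M21 by Ensembl identifier without version (46574 of 47069 matched). Exon lengths and 50-base windows came from its transcripts. The members, the comparison lists and the tests were chosen with earlier results of these data known. All 32 members may be named, and in each comparison list only the 3 most abundant tested genes.

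Genotypes were compared with edgeR 4.0.16 in R 4.3.3 (TMM, filterByExpr, quasi-likelihood test without covariate, Benjamini-Hochberg over all 17667 tested genes, threshold 0.05). CPM used the TMM library size, and 95% intervals the fitted standard error and degrees of freedom. DESeq2 1.42.0 and limma 3.58.1 served as alternatives, with other normalizations and filters, a replicate block, and each mouse left out. The test was tried on simulated counts. A search of protein sequences was not run. Other experiments of the study were not analysed here.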

Additional observations from a re-analysis of the deposited data

How the results depend on the processing

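The number of the 32 genes called, 0 with edgeR's quasi-likelihood test, was 1 with DESeq2, 0 to 1 on leaving out each mouse, and 8 without the filter on low counts (*Cd79a*, *Cd79b*, *Pax5*, *Ighm*, *Ighd*, *Cd8b1*, *Tcf7* and *Ltb*). In the fit without the filter the prior degrees of freedom were infinite, against 5.07, so that all genes shared 1 trend of variation. The number of all genes called, 3, was 372 with DESeq2, 1 with limma-voom, 0 with upper-quartile and 79 with total-count normalization, 552 of 38261 without the filter, and 0 to 59 with each mouse left out, the 59 without *Egr1*-/- replicate 1. Total-count normalization shifted the median of all genes by -0.15 on the log2 scale.

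With the replicate number as a block, 0 of 32 genes and 0 of all genes were called, so no call among the 32 changed. After removal of the genotype means, same-numbered mice had correlations of -0.0888, 0.106 and -0.126 across 17667 genes, so the numbers were not read as pairs. *Cd4* had a negative log2 fold change with the block (-0.032), limma-voom (-0.063) and total-count normalization (-0.021). All other log2 fold changes stayed positive under the 9 alternatives that kept the 6 mice.

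With each mouse left out, the log2 fold changes of 14 genes reached below 0. The lowest and highest values were -0.079 and 0.84 for *Blk*, -0.069 and 0.59 for *Cr2*, -0.030 and 0.63 for *Fcer2a*, -0.018 and 0.85 for *Cd3e*, -0.089 and 0.77 for *Cd3g*, -0.21 and 0.40 for *Cd4*, -0.058 and 0.56 for *Cd8a*, -0.19 and 0.70 for *Lck*, -0.074 and 0.61 for *Cd2*, -0.14 and 0.61 for *Cd5*, -0.19 and 0.45 for *Cd28*, -0.045 and 0.58 for *Il7r*, -0.045 and 0.63 for *Lef1* and -0.070 and 0.56 for *Madcam1*.
Medians with a mouse left out were 0.28 to 0.86 for B cell, -0.05 to 0.67 for T cell, 0.36 to 1.06 for homing and 0.44 to 1.04 for stromal genes. With counts outside mitochondrial genes as library size, the ratios of summed levels were 1.53, 1.35, 1.56 and 1.60 in that order.

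The spread between mice, above that of most genes for 31 of the 32, set the width of the intervals, and the low counts of *Madcam1* and *Chst4* limit their values further.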
